A study of Mus musculus with 11 samples.

Results

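Genes that mark neurons of particular cortical layers, or the progenitor cells that give rise to them, were followed in the neocortex of mouse embryos. They are Tbr1, Fezf2, Crym and Pcp4 of the deep layers, and Pou3f1 and Pou3f2, listed here with the upper layers. Eomes is of intermediate progenitors and Prom1 of neural stem and progenitor cells. These genes are 8 of 6041 with a named probe, and each was measured by 1 probe with a value on all 11 arrays. The 8 genes were chosen by their log ratios of null over wild type in an earlier reading of these arrays, so these ratios are described without a test.

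Each array compared the RNA of 1 null mutant embryo of the C57BL/6 background at embryonic day 18 with wild-type RNA of the same background. The mutant is called synaptically silent in the record, and the arrays address which mRNAs of the unborn brain respond to the lack of synaptic transmission. The design text gives the wild-type partner as pooled replicates, read here as 1 pool used on every array, so the spread between wild-type embryos does not enter any error. Arrays 1, 2, 6, 7, 8 and 10 had the null RNA labelled with Cy3, and in the other 5 it was labelled with Cy5. On arrays 1 and 6 one label puts the wild-type RNA at day 14 and another at day 18, which matters for genes that change between those days. With 1 pool on every array the day would be the same throughout, so that reading and the day 14 label conflict. The labels do not settle which holds. The values hold ratios and no levels, so the labelled tissue could not be checked against its marker genes.

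All values are log2 ratios, on the assumption that the deposited logs have base 2. The direction is not stated in the sources used here and was taken as null over wild type on every array. Xist, which only female cells express, lay below -4 on 4 Cy3 and 2 Cy5 arrays, down to -7.37, and between 0.00 and 0.67 on 4 others. Read as null over wild type, such values need a pool that held female tissue, and read the other way a pool that held none. Over all probes, pairs of arrays of opposite dye orientation had a median Spearman rho of 0.214, against 0.473 for pairs of the same orientation, and the lowest of all pairs was -0.078. Single pairs crossed this split, since Cy3 array 10 had 0.635 with Cy5 array 3 but -0.051 with Cy3 array 1.

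The neocortex is built from the inside out. Radial glia at the ventricle divide and give rise to intermediate progenitors, whose daughter neurons settle first in the deep layers and later in the upper ones. Each step is marked by transcription factors that fix the identity and the axonal target of a neuron, so their transcripts serve to follow progenitor stages and layers. In bulk tissue fewer cells of a type and less RNA per cell cannot be told apart.

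Of these genes 7 had higher ratios in null neocortex and Pcp4 had a lower one. The fitted means ran from Eomes (0.44), Crym (0.40), Pou3f2 (0.36), Prom1 (0.33), Fezf2 (0.32) and Tbr1 (0.30) to Pou3f1 (0.24), and then to Pcp4 at -1.01. Neighbours among the first 7 differed by 0.01 to 0.06, less than the SD of either gene over the arrays. The whole step from Eomes to Pou3f1 was 0.20, beside SDs of 0.23 for Eomes and 0.17 for Pou3f1. Among the steps between neighbours, only that of 1.25 from Pou3f1 to Pcp4 was larger than the SDs of its genes. An SD over single arrays is not the error of a difference between means, and differences between the genes were not tested. Of the 77 values of the 7 genes, 70 were above 0. In the fit across all genes, 699 of 4812 (14.5%) were called higher and 687 (14.3%) lower at an adjusted p of 0.05. The 8 genes were picked from that comparison, so their own calls carry no weight.

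**Figure D1:**
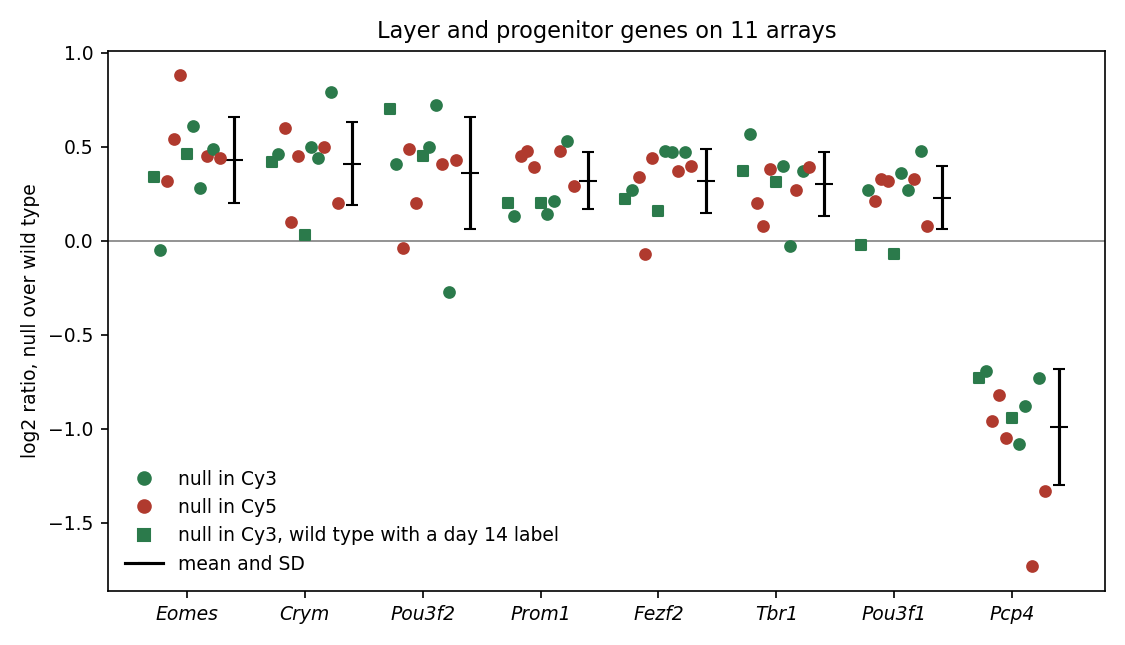
Log2 ratio of null over wild type (vertical axis) of the 8 genes (horizontal axis) on each of 11 arrays in array order, with null RNA in Cy3 in green, in Cy5 in red, and squares for arrays 1 and 6; black bars give the mean and the SD. The highest Pcp4 value, -0.69, lies below the lowest value of any other gene, -0.27, but the genes were chosen by these same ratios.

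Tbr1 encodes a T-box factor that gives layer 6 neurons their identity, and Eomes, also known as Tbr2, is its close relative in intermediate progenitors. Their promoters are shown because the genes are paralogs that mark successive steps of one lineage, and that of Pcp4 because it is the gene of opposite direction. The sequences are RefSeq's of build GRCm38.p6, from 250 bases before to 50 after the start, 5′ to 3′. Capitals mark AATTAA, a core that homeodomain proteins can bind, and CCAAT, each on either strand. Of the 8 genes, 6 had such a promoter entry; Crym and Pou3f1 had none.
Tbr1 promoter (chr2:61804203-61804502, plus strand): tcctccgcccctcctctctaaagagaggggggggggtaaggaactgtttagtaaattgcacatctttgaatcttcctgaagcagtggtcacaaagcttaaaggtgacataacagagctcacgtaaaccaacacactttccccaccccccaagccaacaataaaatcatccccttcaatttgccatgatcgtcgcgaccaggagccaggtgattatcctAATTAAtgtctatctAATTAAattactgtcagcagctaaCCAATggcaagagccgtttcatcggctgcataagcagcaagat
Eomes promoter (chr9:118477939-118478238, plus strand): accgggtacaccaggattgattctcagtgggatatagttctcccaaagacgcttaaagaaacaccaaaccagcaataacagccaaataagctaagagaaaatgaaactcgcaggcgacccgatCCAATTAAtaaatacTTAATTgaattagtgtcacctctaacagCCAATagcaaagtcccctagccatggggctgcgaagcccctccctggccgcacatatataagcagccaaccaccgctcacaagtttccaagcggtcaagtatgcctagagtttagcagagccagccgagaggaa
Pcp4 promoter (chr16:96467356-96467655, plus strand): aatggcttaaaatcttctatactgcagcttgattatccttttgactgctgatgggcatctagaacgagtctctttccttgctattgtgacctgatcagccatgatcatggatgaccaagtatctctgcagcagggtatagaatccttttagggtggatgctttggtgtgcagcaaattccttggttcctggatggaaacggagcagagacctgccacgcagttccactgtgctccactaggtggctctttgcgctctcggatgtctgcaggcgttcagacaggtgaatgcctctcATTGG
Tbr1 and Eomes each held 2 copies of AATTAA, and Prom1 held 1 in each of its 2 listed promoters. Those of Pcp4, Fezf2 and Pou3f2 held 0. Over all 32851 promoter windows of this length 11.3% held at least 1 copy. CCAAT occurred in those of Tbr1, Eomes, Prom1, Pou3f2 and Pcp4, and in 37.4% of all windows. In Eomes 1 copy of each overlapped. The 2 motifs were chosen after the sequences had been seen. The POU octamer ATGCAAAT (1.74% of all windows) and the T-box core GGTGTGA (3.98%) were searched on both strands and occurred in none of the 7 windows of these 6 genes. A match is only a run of letters, and no match says nothing about the factor.

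Among the deep layer genes, Tbr1 had ratios between -0.03 (array 8) and 0.57 (array 2), with a median of 0.37, and was above 0 on 10 of 11 arrays. Its fitted mean of 0.30 ± 0.05 (SE, n = 11) is a 1.23-fold higher level. Array 4, at 0.08, and array 8 stood lowest, and they belong to opposite dye orientations. Fezf2 encodes a zinc finger factor needed for layer 5 neurons that project below the cortex. It ranged from -0.07 (array 4) to 0.48 (array 7) with a median of 0.37, and its mean was 0.32 ± 0.05, or 1.25-fold. Again 10 of 11 arrays were above 0, and the single negative value was on array 4.

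Crym encodes mu-crystallin, a protein that binds thyroid hormone and marks neurons that project out of the cortex. It was above 0 on all 11 arrays. The values went from 0.03 on array 6 and 0.10 on array 4 to 0.60 on array 3 and 0.79 on array 10, around a median of 0.45 and a mean of 0.40 ± 0.07 (1.32-fold). Its lowest and highest arrays both carried the null RNA in Cy3.

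Pcp4 encodes a small protein that binds calmodulin and speeds its exchange of calcium, and in the cortex it marks deep layer projection neurons. Every array was below 0, from -1.73 (array 9) and -1.33 (array 11) to -0.73 (array 10) and -0.69 (array 2), with a median of -0.94. The fitted mean of -1.01 ± 0.07 is a 2.01-fold lower level. Of 4979 named probes tested, 13 had lower ratios than Pcp4. The values of Pcp4 and of the other 3 deep layer genes did not overlap on any array, but the genes were chosen by these same ratios.

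Pou3f1 and Pou3f2, also known as Oct6 and Brn2, encode POU homeodomain factors that are listed here with the upper layers, and Pou3f2 also acts in late progenitors. Pou3f1 had ratios from -0.07 to 0.48, a median of 0.27 and a mean of 0.24 ± 0.05 (1.18-fold), and 9 of 11 arrays were above 0. The 2 arrays below 0 were arrays 1 and 6, at -0.02 and -0.07. Pou3f2 ranged more widely, from -0.27 (array 10) and -0.04 (array 3) to 0.70 (array 1) and 0.72 (array 8). Its median was 0.43 and its mean 0.36 ± 0.08 (1.28-fold). Its 2 negative arrays were not those of Pou3f1. On array 10 the genes were farthest apart, with Pou3f1 at its highest value and Pou3f2 at its lowest.

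Eomes had the highest mean, 0.44 ± 0.06 or 1.36-fold. It went from -0.05 on array 2, the single value below 0, to 0.88 on array 5, and the other 9 arrays lay between 0.28 and 0.61. Prom1 encodes prominin-1 (CD133), a membrane protein of the apical surface of neural stem cells. Its values were all above 0 and closer together, from 0.13 (array 2) to 0.53 (array 10), with a median of 0.29 and a mean of 0.33 ± 0.04 (1.25-fold).

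The spread over the arrays holds differences between embryos together with those of probe and hybridisation, and differences in spread were not tested. After removing the mean of each dye orientation, Prom1 had an SD of 0.12, and only 13.3% of the 4812 genes tested had a smaller one. Tbr1 (0.17), Fezf2 (0.17) and Pou3f1 (0.18) were close to the median gene, at 0.19. Eomes (0.22), Crym (0.23) and Pcp4 (0.27) varied more, and Pou3f2 most, at 0.31, with 86.3% of genes below it. All 7 genes with higher ratios were above 0 together on 4 arrays only, namely 5, 7, 9 and 11. On each of the others 1 gene was at or below 0, and that gene was Pou3f1 on arrays 1 and 6, Pou3f2 on arrays 3 and 10, and Eomes, Fezf2 and Tbr1 on 1 array each. The median of the 7 lay between 0.20 (array 6) and 0.48 (arrays 7 and 10).

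The mean did not hide a difference between dye orientations that passed the test. The rule used the mean over all arrays, so the difference between the 5 Cy5 and the 6 Cy3 arrays is a separate measure. Pcp4 was lower on the Cy5 arrays, at -1.18 ± 0.36 (SD) against -0.84 ± 0.15. The Cy5 arrays alone reached below -1.08 and the Cy3 arrays alone above -0.82, and between these values the orientations overlapped. That difference of -0.34 ± 0.15 (SE) had an unadjusted p of 0.0379 and an adjusted p of 0.199 in limma. Prom1 was higher on the Cy5 arrays by 0.18 ± 0.09 (adjusted p = 0.243) and Eomes by 0.17 ± 0.13 (adjusted p = 0.442). For the other 5 genes the difference lay between -0.12 and 0.04, with standard errors of 0.11 to 0.16. None of the 8 genes was called, 1 had an unadjusted p below 0.05, and over all probes limma called 4 of 5399 (0.0741%), with 1207 at an unadjusted p below 0.05.

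Among the 8 genes Pou3f1 had the largest difference between arrays 1 and 6 and the rest. These are the arrays whose wild-type RNA has a day 14 label, and they were compared with the other 4 arrays that carried null RNA in Cy3. It averaged -0.04 on arrays 1 and 6 and 0.35 on the others, of which the lowest was 0.27. How many other probes separate these arrays in the same way was not counted. That difference was -0.39 ± 0.12, with an unadjusted p of 0.00625 and an adjusted p of 0.952 in the limma fit over 5217 probes. Crym differed in the same direction, at 0.23 against 0.55 (-0.32 ± 0.17, adjusted p = 0.952), as did Fezf2, at 0.19 against 0.42 (-0.23 ± 0.15, adjusted p = 0.952). Pou3f2 went the other way, at 0.57 against 0.34 (0.23 ± 0.23, adjusted p = 0.952). Tbr1, Pcp4, Prom1 and Eomes differed by -0.05 to 0.07, with standard errors of 0.13 to 0.22. None of the 8 genes was called and 1, Pou3f1, had an unadjusted p below 0.05. Of all probes 0 were called (0.0%), with 260 at an unadjusted p below 0.05, and no other tool was run. Pou3f1 was singled out after its values were seen.

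**Figure D2:**
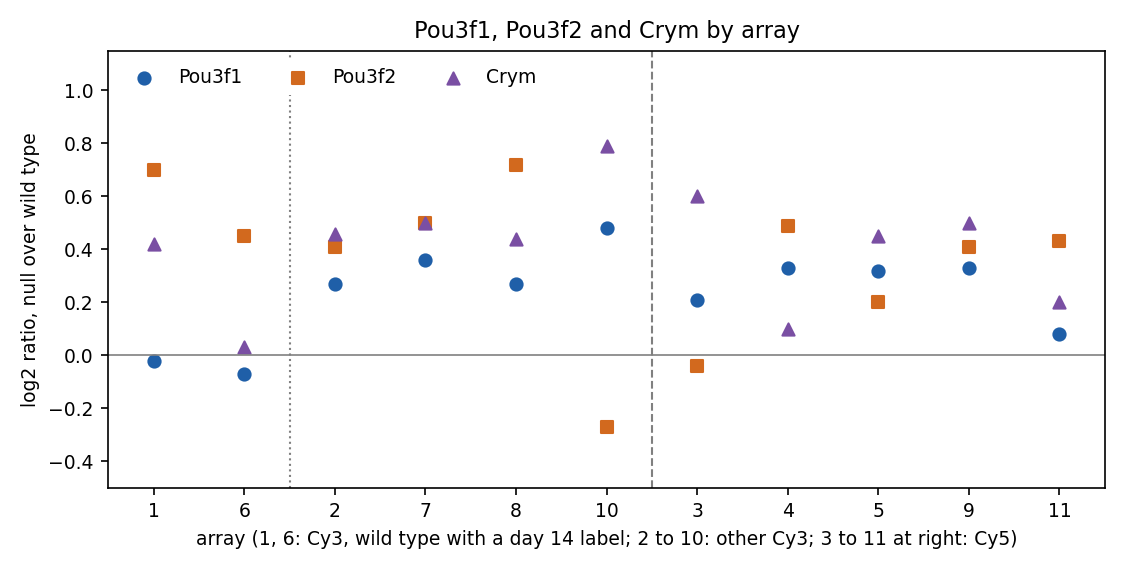
Log2 ratio of null over wild type (vertical axis) of Pou3f1 (circles), Pou3f2 (squares) and Crym (triangles) on each array (horizontal axis), ordered as arrays 1 and 6, the other Cy3 arrays, and the Cy5 arrays, with lines between these sets. Pou3f1 is below 0 on arrays 1 and 6 only, and Pou3f2 on arrays 10 and 3 only. Pou3f1 was singled out after its values were seen. How many other probes set arrays 1 and 6 apart was not counted, and the difference did not pass (limma adjusted p = 0.952).

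Whether the 8 genes followed each other over the arrays was tested pair by pair. Of the 28 pairs, those with Pcp4 included, 13 had a positive and 15 a negative Pearson r over 11 arrays after centring within each orientation, with a median of -0.02. The arrays share the wild-type pool. By a permutation test within orientations, 0 of 28 pairs passed after Benjamini-Hochberg adjustment, 2 had an unadjusted p below 0.05, and the smallest adjusted p was 0.54.

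The highest values belonged to Crym. It had r = 0.65 with Fezf2 (rho = 0.55, permutation p = 0.02, adjusted 0.54; for rho p = 0.11) and r = 0.65 with Pou3f1 (rho = 0.61, permutation p = 0.038, adjusted 0.54; for rho p = 0.053). Without the 2 arrays farthest from the median of the first gene, r fell to 0.18 in both pairs (arrays 4 and 6, and arrays 6 and 10), a choice of arrays that also narrows the range of that gene. Without arrays 3, 4 and 10, r was 0.56 for Fezf2 with Crym and 0.81 for Crym with Pou3f1, and without arrays 1 and 6 it was 0.55 and 0.44. The lowest value was that of Pou3f2 with Prom1, at r = -0.69 (rho = -0.20, permutation p = 0.11, adjusted 0.76; for rho p = 0.56), and it became 0.24 without arrays 3 and 10. Tbr1 with Prom1 had the lowest rho, -0.69, with the smallest p for rho (0.023, adjusted 0.50), beside r = -0.24 (permutation p = 0.42, adjusted 0.91) and r = -0.43 without arrays 4 and 8. Pou3f2 and Crym had r = -0.64 (rho = -0.64, permutation p = 0.076, adjusted 0.71; for rho p = 0.048), and -0.63 without arrays 6 and 10. Without arrays 3, 4 and 10 the same pair had r = 0.11.

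Among relatives and partners, the paralogs Pou3f1 and Pou3f2 had r = -0.45 (rho = -0.30, permutation p = 0.27, adjusted 0.84; for rho p = 0.42). For Tbr1 and Eomes r was -0.03 (rho = 0.01, permutation p = 0.94, adjusted 0.98; for rho p = 0.99), and for Eomes and Prom1 0.21 (rho = 0.25, permutation p = 0.53, adjusted 0.93; for rho p = 0.48). Pcp4 had r between -0.46 and 0.18 with the other 7 genes.

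**Figure D3:**
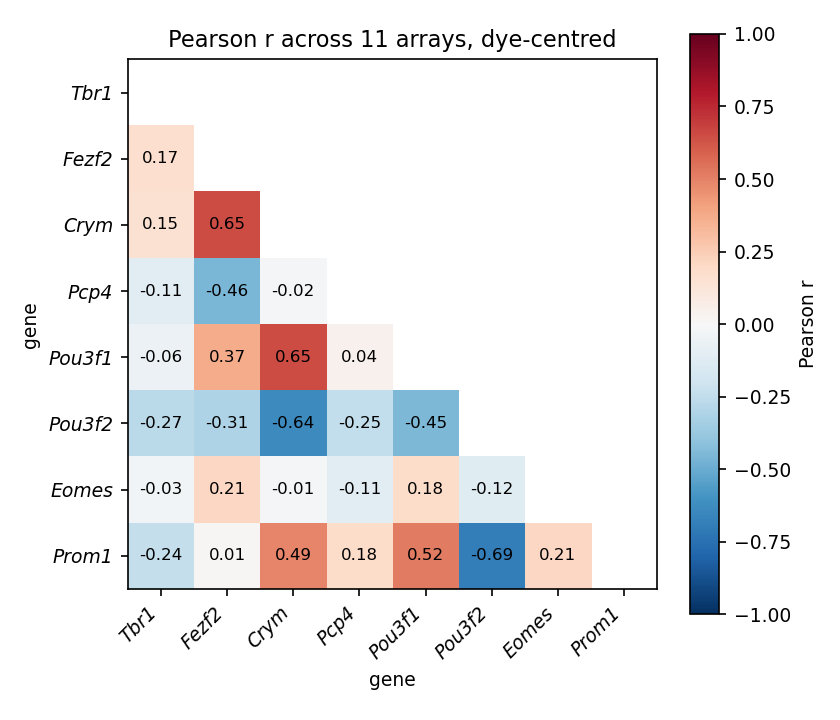
Pearson r over 11 arrays of dye-centred log2 ratios for each of the 28 pairs of the 8 genes (both axes), from blue at -1 to red at 1. The values run from -0.69 to 0.65 and 15 of 28 are negative.

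Genes with the most similar pattern over the 11 arrays were sought among 3695 genes by the same dye-centred r, as a description. For Pcp4 they were the granin Scg2 (r = 0.91), the calcium-binding protein Calb1 (0.91) and Phyh (0.90). The fitted ratios of the first pair were low as well, at -1.12 ± 0.07 and -1.46 ± 0.10, and that of Phyh was -0.13 ± 0.06. For Eomes they were Emd (0.89), Slc12a7 (0.88) and the proliferation marker Mki67 (0.84), with fitted ratios of 0.08 ± 0.05, 0.26 ± 0.05 and -0.11 ± 0.05. For Tbr1 they were Ggh, Inmt and Slc40a1 (0.81 to 0.83), for Fezf2 Ptprb, Zfp57 and Gpx5 (0.93 to 0.96), and for Crym Igdcc4, Stk25 and Orc3 (0.91 to 0.95). Those of Pou3f1 were Cntn1, Pcnx and Bag1 (0.90 to 0.92), those of Pou3f2 Scarb1, Ccn5 and Pkm (0.91 to 0.94), and those of Prom1 Ppp2ca, Cnih1 and Vamp8 (0.90 to 0.95). Because means were removed, r does not give the direction of a ratio. Beside Pou3f1 and Pou3f2, the fitted ratios of Cntn1 (-0.48), Scarb1 (-0.48) and Pkm (-0.21) were below 0. Those of Pcnx (0.06), Bag1 (0.02) and Ccn5 (0.17) were above 0. Each set is the top 3 of many, and none of the 8 genes was among the 3 closest to another.

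Other genes known to mark layers and progenitors were taken from 4 lists. Of 58 such genes tested, 12 were higher (20.7%) and 6 lower (10.3%), beside 14.5% and 14.3% of all genes, and the median ratio was 0.08 beside -0.01. The counts moved with single arrays: 7 genes were higher without array 7, and 3 were lower without array 11. On the 5 Cy5 arrays alone 0 were higher and 1 was lower.

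Eomes shares its list with other genes of intermediate progenitors and newborn neurons. Of 13 others listed, 8 were tested, 4 rose and 0 fell, with a median of 0.16. Neurod6, a bHLH factor of young projection neurons, rose by 0.40 ± 0.07 (limma adjusted p = 0.000996), and the Notch modifier Mfng by 0.30 ± 0.06 (n = 10). Neurod1 rose by 0.24 ± 0.06 and Neurog2, which directs progenitors to a neuronal fate, by 0.17 ± 0.04, being above 0 on 11 of 11 arrays. Neurod1 averaged 0.35 on the Cy3 arrays and 0.12 on the Cy5 arrays, and Neurog2 averaged 0.07 and 0.27. On the Cy5 arrays alone 0 of the 8 tested genes of this list were higher. Insm1, a factor that promotes intermediate progenitors, had a ratio of 0.02 ± 0.06 (adjusted p = 0.838), and Gadd45g (0.14), Btg2 (0.13) and Neurod2 (0.08) did not pass either.

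The radial glia and progenitor list of Prom1 went both ways. Of 21 tested, 3 rose (14.3%) and 4 fell (19.0%), close to the 14.5% and 14.3% of all genes, and the median was 0.08. Ednrb (0.24 ± 0.07, n = 8), the cortical factor Emx1 (0.17 ± 0.05) and the Notch target Hes5 (0.13 ± 0.04, adjusted p = 0.0432) rose. The corepressor Dach1 fell by 0.46 ± 0.07 (n = 10, adjusted p = 0.000532), the glutamate transporter Slc1a3 by 0.27 ± 0.06, the matrix protein Tnc by 0.23 ± 0.05 and the cyclin Ccnd1 by 0.21 ± 0.06. Without array 10, 6 genes of this list were higher. The call of Ccnd1 was lost without array 11 (adjusted p = 0.0519), that of Ednrb without array 5, 7 or 11 (up to 0.0925) and that of Hes5 without any 1 of 7 arrays (3 and 5 to 10, up to 0.0966). The defining radial glia factors Pax6 (0.06 ± 0.07) and Sox2 (0.10 ± 0.06) and the filament gene Nes (-0.07 ± 0.05) did not pass.

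Deep layer and subplate genes other than the 4 above had a median of 0.00. Of 19 tested, 5 rose (26.3%) and 2 fell (10.5%), beside 14.5% and 14.3% of all genes. Those that rose were Nfib (0.34 ± 0.06, adjusted p = 0.00148), the subplate factor Nr4a2 (0.27 ± 0.05), the layer 6 gene Rprm (0.18 ± 0.05), the corepressor Tle4 (0.17 ± 0.05) and Ldb2 (0.17 ± 0.05). The subplate marker Ccn2 fell by 0.22 ± 0.06 and Cdh13 by 0.21 ± 0.07. Cdh13 averaged -0.02 on the Cy3 arrays and -0.4 on the Cy5 arrays. Leaving out array 7 ended the calls of Tle4, Rprm, Ldb2, Ccn2 and Cdh13 (adjusted p = 0.0504 to 0.0679). Calls were also lost without array 11 for Rprm, Ccn2 and Cdh13, without array 5 for Rprm, without array 6 for Ldb2, and without array 1, 2 or 9 for Cdh13 (up to 0.0737). Bcl11b, which acts downstream of Fezf2 in layer 5 neurons, had a ratio of -0.07 ± 0.06 (adjusted p = 0.378), Sox5 one of 0.05 ± 0.05, and Foxp2 one of -0.15 ± 0.08 (n = 10).

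None of the 10 upper layer genes tested beside Pou3f1 and Pou3f2 passed, and 2 had an unadjusted p below 0.05 in limma. Leaving out array 1 gave 2 higher, and leaving out array 4 or 10 gave 1. With array weights 2 were higher, and without arrays 3, 4 and 10 together 3 were. Lhx2 came closest, at 0.20 ± 0.08 (unadjusted p = 0.0178, adjusted p = 0.0585), followed by Lmo4 (0.13 ± 0.05, unadjusted p = 0.0337). Both were above 0 on most arrays, 9 and 8 of 11. Cux2 and Cux1, the standard upper layer factors, had ratios of 0.07 ± 0.06 and -0.05 ± 0.08. Mef2c (0.11 ± 0.07) and Dkk3 (0.09 ± 0.06) did not pass. Pou3f3, the closest relative of Pou3f2, had a mean of 0.29 on the Cy3 arrays and -0.43 on the Cy5 arrays.

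**Figure D4:**
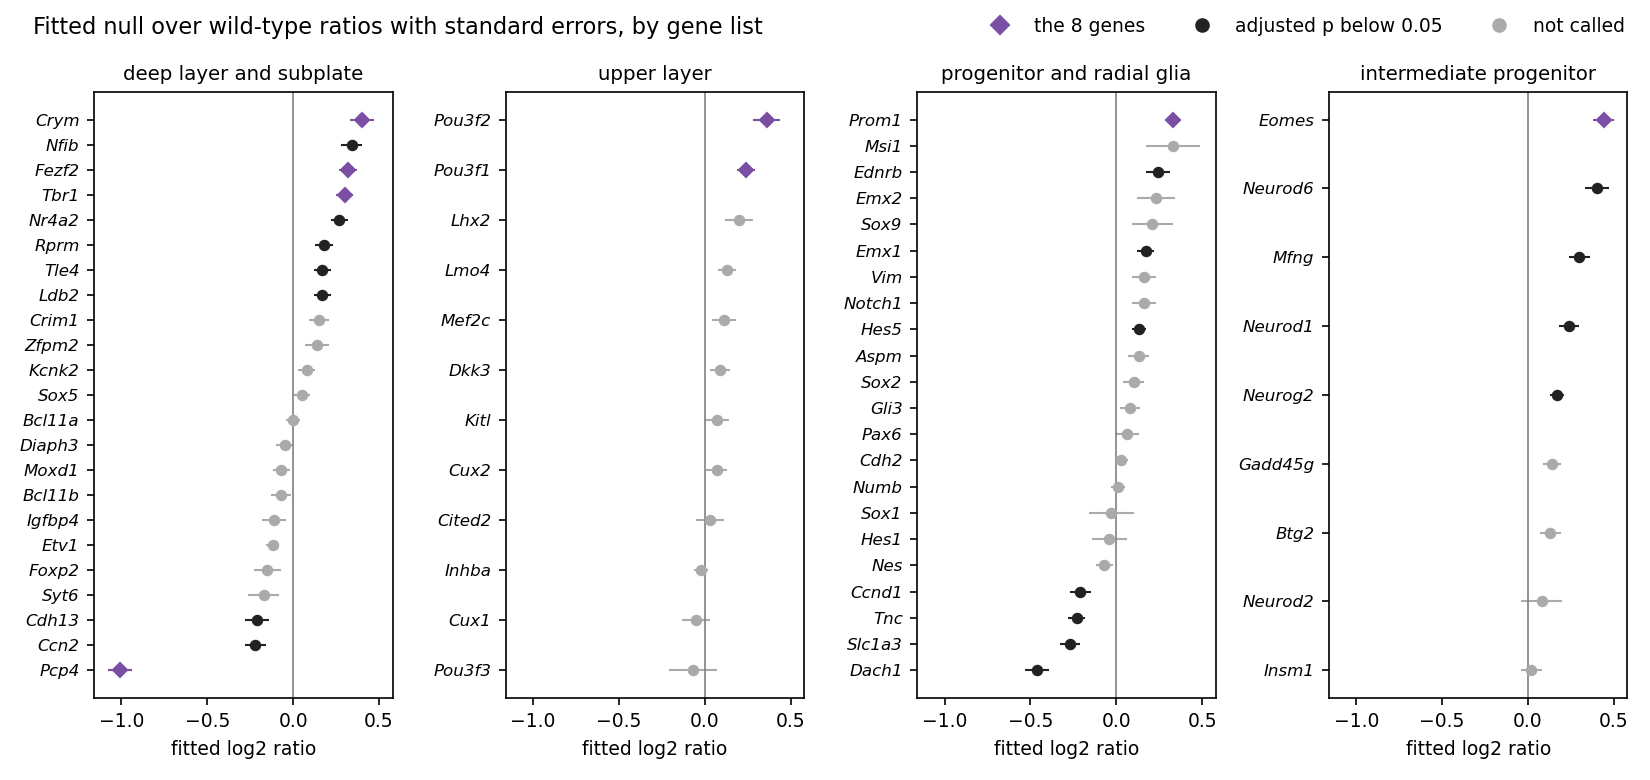
Fitted log2 ratio of null over wild type (horizontal axis) with its standard error for each tested gene (vertical axis) of 4 lists, with the 8 genes as diamonds, genes at an adjusted p below 0.05 in black and others in grey. The place of the diamonds follows from how the 8 genes were chosen, and the other genes run from Dach1 at -0.46 to Neurod6 at 0.40.

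Further lists set the 8 genes beside their families and pathways. All 14 relatives tested were T-box or POU genes, of which 21.4% rose and 7.14% fell, beside 14.5% and 14.3% of all genes. Among them, Tbx10 (0.15 ± 0.04), Mga (0.19 ± 0.05) and Tbx15 (0.18 ± 0.06) rose and Tbx3 fell by 0.17 ± 0.06 (adjusted p = 0.0483). The call of Tbx3 held only without array 5 or 8, and was lost without any other array (up to 0.105). That of Tbx15 held only without array 2, 5, 9 or 10 (otherwise up to 0.0929). Pou3f4 had a ratio of 0.07 ± 0.06. Of 10 genes of calmodulin and its regulators tested beside Pcp4, 4 fell (40.0%) and 0 rose, with a median of -0.10. They were Camk2d (-0.74 ± 0.07, n = 10), the growth cone protein Gap43 (-0.50 ± 0.04), which binds calmodulin through the same kind of motif as Pcp4, and the calcineurin subunits Ppp3ca (-0.25 ± 0.06) and Ppp3cb (-0.21 ± 0.05). Calm3, a calmodulin gene, had a ratio of -0.04 ± 0.07.

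Crym is set beside the genes that carry, convert and read thyroid hormone. Of 7 tested, 1 rose (14.3%) and 3 fell (42.9%), beside 14.5% and 14.3% of all genes, with a median of -0.19. The corepressor Hr, a hormone target, rose by 0.28 ± 0.07 (n = 10), whereas Rxrg, a partner of the hormone receptor, fell by 0.54 ± 0.09 (n = 10), the transporter Slco1c1 by 0.28 ± 0.08 and the target Klf9 by 0.19 ± 0.06. The call of Slco1c1 was lost without array 3 or 4 (adjusted p = 0.055 and 0.0502), and that of Klf9 without array 1, 3, 5, 7, 8 or 9 (up to 0.0686). Slco1c1 averaged -0.02 on the Cy3 arrays and -0.53 on the Cy5 arrays, with 5 arrays above 0 and 6 below. The receptor Thra had a ratio of -0.03 ± 0.06. Of 6 Cajal-Retzius genes, which mark early neurons of the cortical surface, Cacna2d2 (-0.62 ± 0.05) and Calb2 (-0.49 ± 0.06) fell, and Ebf2 (-0.13 ± 0.06), Lhx1 (0.09 ± 0.06) and Reln (0.03 ± 0.05) did not pass.

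Markers of other cells moved in the same comparison, and their part in the ratios of the 8 genes was not tested. Their counts stand beside 14.5% of all genes called higher and 14.3% called lower. Of 10 tested microglia and macrophage markers 7 rose, among them Laptm5 (1.01) and C1qc (0.88), while Itgam (-0.18) and Ptprc (-0.21) fell. The median of the 10 tested markers lay between 0.45 and 0.80 on single arrays, and with the listed markers that were measured on too few arrays to be tested it was 0.29 on array 5. The array medians of the lists that follow are over tested markers. Of 9 astrocyte markers, Gfap (1.48), Apoe (0.95), Gja1 (0.50), Clu (0.17) and Glul (0.19) rose and Slc1a3, which is also on the radial glia list, fell, with array medians of 0.06 to 0.43. The calls of Clu and Glul were lost without array 5 or 8, and that of Glul also without array 3, 4 or 6.

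Choroid plexus and meningeal markers rose in 6 of 10, among them Ogn (0.58) and Col1a1 (0.42), with array medians of 0.08 to 0.34. Ttr had the largest ratio of this list, 1.5 ± 0.62, but did not pass (limma adjusted p = 0.0848). Its values ran from -1.78 to 5.05, above 0 on 7 arrays and below 0 on 4. Folr1 (-0.15) fell, a call that was kept only without array 5 or 8, and Foxc1 (0.21) was not called without array 11. From the tissues next to the neocortex, striatum and thalamus, 4 of 10 markers fell and 0 rose, namely Ppp1r1b (-0.71), Zic1 (-0.53), Isl1 (-0.30) and Ebf1 (-0.25), with array medians of -0.51 to -0.06. Of 11 markers of GABA neurons Calb1 (-1.46) and Slc32a1 (-1.02) fell and Htr3a (0.29) rose (array medians -0.15 to 0.19), and 2 were higher without array 1 or array 4. The remaining 8, among them Gad1 (0.14 ± 0.05), Gad2 (0.13 ± 0.14, n = 9) and Dlx5 (-0.16 ± 0.07), did not pass. The median ratio of these GABA neuron markers was 0.03. The 8 oligodendrocyte markers tested went both ways, with Sox10 (0.31) and Cldn11 (0.34) higher and Mag (-0.27) and Olig1 (-0.37) lower (25.0% each, array medians -0.35 to 0.13).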

How the data were processed

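Per the labels, total RNA of 11 null embryos was hybridised against wild-type RNA on dual-colour arrays. The authors deposited 1 log2 ratio per probe and array (base 2 assumed); for scanner, background correction, normalization and direction, the methods were not given in the sources used here. Column means lie between -0.00405 and 0.00298, so a uniform shift would not show. Arrays carried 4822 to 6316 values of 6856 probes, and 17.3% of cells were empty. No spot intensities were used, so signal over background is unknown. Precision is limited by how many arrays there are.

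Probe symbols came from the platform annotation, 6250 of 6269 updated through Entrez identifiers to RefSeq (GRCm38.p6), with 6 probes of several symbols and 581 without one left unnamed. A filter kept probes measured 8 times or more, with 3 or more values per dye orientation. They were fitted with limma 3.58.1 in R 4.3.3 (mean ratio against 0 plus a dye term, moderated variances), two-sided, with Benjamini-Hochberg adjustment over all 5399 probes, or 4812 genes after averaging probes. An extra term compared arrays 1 and 6 with the other Cy3 arrays. Errors marked SE come from these fits. Pairs were tested two-sided with 100000 resamples. Fits were also run on simulated data with independent noise for each probe and array. That setting leaves out what the arrays share, so it does not show how calls behave here. Nothing in the labels says more of how embryos were obtained, so p-values measure the spread between these samples.

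Members and lists were chosen with earlier results of these data known. Named from each list were the genes of smallest p, up to 4, and those called, up to 8, plus, for other cell types, the 2 of smallest p; for each of the 8 genes, the 3 most similar genes. A few standard markers that did not pass were added after their values were seen. Alternatives changed the dye term, arrays, centring, scale, weights, filter, variances and direction. The mutated gene is not reported here.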

Additional observations from a re-analysis of the deposited data

How the results depend on the processing

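Each of the 8 genes kept its direction, and its mean moved by less than 1 SD, under 22 of 23 alternatives, which left out arrays or changed the dye term, centring, scale, weights, probe filter or variances. Many of these alternatives could hardly come out otherwise. Leaving out 1 of 11 arrays moves a mean little, and the probe filter and robust variances cannot move it for genes with all 11 values. The 8 genes were also chosen by these ratios. The exception among the 23 alternatives was turning the sign of the Cy5 arrays. It gave 0.03 for Tbr1, 0.02 for Fezf2, 0.03 for Crym, 0.17 for Pcp4, -0.02 for Pou3f1, -0.09 for Eomes and -0.09 for Prom1, while Pou3f2, at 0.06, stayed within 1 SD of its mean. With the sign turned, limma called 4 probes in place of 1545, and of the other 58 layer and progenitor genes 0 were higher and 0 lower. That follows from the alternative's construction, since it sets the orientations against each other. On the Cy5 arrays alone limma called 454 probes, with 0 of the 58 genes higher and 1 lower; on the Cy3 arrays alone 10 were higher and 3 lower. Array weights gave 20 higher. With 1 array left out, between 7 (without array 7) and 17 were higher and between 3 (without array 11) and 7 lower. Apart from fewer arrays, the cause of these shifts was not tested. No gene among the 8 was called by the dye or the day label term under any centring, scale, weights, robust variances or array left out. The median r over the 28 pairs lay between -0.07 and -0.01 in the alternatives. The direction and log base of the ratios, the single pool and the 1 probe per gene limit every value.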
